A study of Mus musculus with 8 samples.

Results

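The 8 genes described here are the metallothioneins Mt1 and Mt2 and the oxidative stress genes Nqo1, Hmox1, Gclc, Gclm, Txnrd1 and Srxn1. They were chosen by name, through array probes whose RefSeq accession maps to these symbols, and each gene was represented by its brightest probe. All 8 were among the 19255 genes tested, and all 8 were well above background in both dyes on all 8 arrays. Srxn1 had 3 probes and the other genes had 1.

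Metallothioneins are small cysteine-rich proteins that bind zinc, copper and cadmium and scavenge oxidants, and the zinc sensor MTF1 switches them on through metal response elements. The other genes are classical targets of NRF2 (Nfe2l2), a transcription factor that KEAP1 holds back until oxidants or electrophiles modify it. Free NRF2 pairs with small MAF proteins on antioxidant response elements and raises the enzymes of glutathione, thioredoxin, quinone and haem metabolism. In the intestine these genes serve the lining that meets dietary metals, bile and food toxins.

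RNA came from mouse small intestinal organoids, epithelial cultures in Matrigel that hold stem cells, enterocytes and secretory cells. For 6 days, 2 wild-type lines, each established independently, were kept with 3 µM CHIR99021 plus 1 mM valproic acid (VPA), with 1 mM VPA alone, with 3 µM CHIR99021 alone, or in control medium. CHIR99021 inhibits the kinase GSK3, and VPA inhibits histone deacetylases. Each of the 4 conditions had 1 two-colour array per line, 2 per condition, with the sample in Cy5 and control RNA of the same line in Cy3. No dyes were swapped. The 2 control arrays therefore held control RNA in both dyes, so their spread leaves out differences between control cultures. Strain, sex and age of the mice are not given in the sources used here. Every array of a line was on 1 slide, so line and slide cannot be told apart. With 2 lines, p-values measure only the spread between these lines. It is pooled over the 4 conditions, so the control arrays lower it where their spread is small, and p-values may be too small.

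Values are log2 ratios of Cy5 over Cy3, and to obtain a fold change the control ratio was subtracted from the treated one, which cancels a dye bias that the arrays share. Each fold change is a log2 value ± SE with n = 2 arrays per group, and a gene is called where its adjusted p, by limma over all genes tested, is under 0.05. Well above background in Cy5 were 60.6% to 64.6% of the spots of an array, and 0 spots were saturated. Of 8 epithelial markers, 8 were well above background on every array, whereas the endothelial markers Pecam1, Cdh5, Kdr, Tek and Emcn and the fibroblast marker Dcn were so on 0 arrays. The 3 comparisons with control share the same 2 control arrays, so their values stand side by side and are not independent of each other.

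In each comparison 0 to 2 of the 8 genes passed the test, and the share of all genes is given beside each count. With the combination, 0 of 8 rose and 2 fell, Nqo1 and Gclm, where 8.43% of all genes rose and 7.11% fell (15.5% in all). With VPA, 1 rose, Mt1, and 0 fell, where 6.55% of all genes rose and 4.19% fell (10.7% in all). With CHIR99021, 0 of 8 were called, where 0.109% of all genes rose and 0.956% fell (1.06% in all). Relative to CHIR99021 alone, 1 gene was higher with the combination, again Mt1, and 0 were lower, where 6.19% of all genes rose and 3.82% fell (10% in all). Relative to VPA alone, 0 were called, where 0.0883% of all genes rose and 1.02% fell (1.11% in all). An unadjusted p under 0.05 was reached with the combination by 4 of the 8 and 5719 of all 19255 genes, with VPA by 2 and 4995, and with CHIR99021 by 4 and 2467. For the combination against CHIR99021 alone it was reached by 3 of the 8 and 4827 of all genes, and against VPA alone by 4 and 2704. The median over the 8 genes was 0.06 with the combination, 0.57 with VPA and -0.38 with CHIR99021, where the medians of all genes were 0.0065, -0.0004 and 0.0084.

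**Figure D1:**
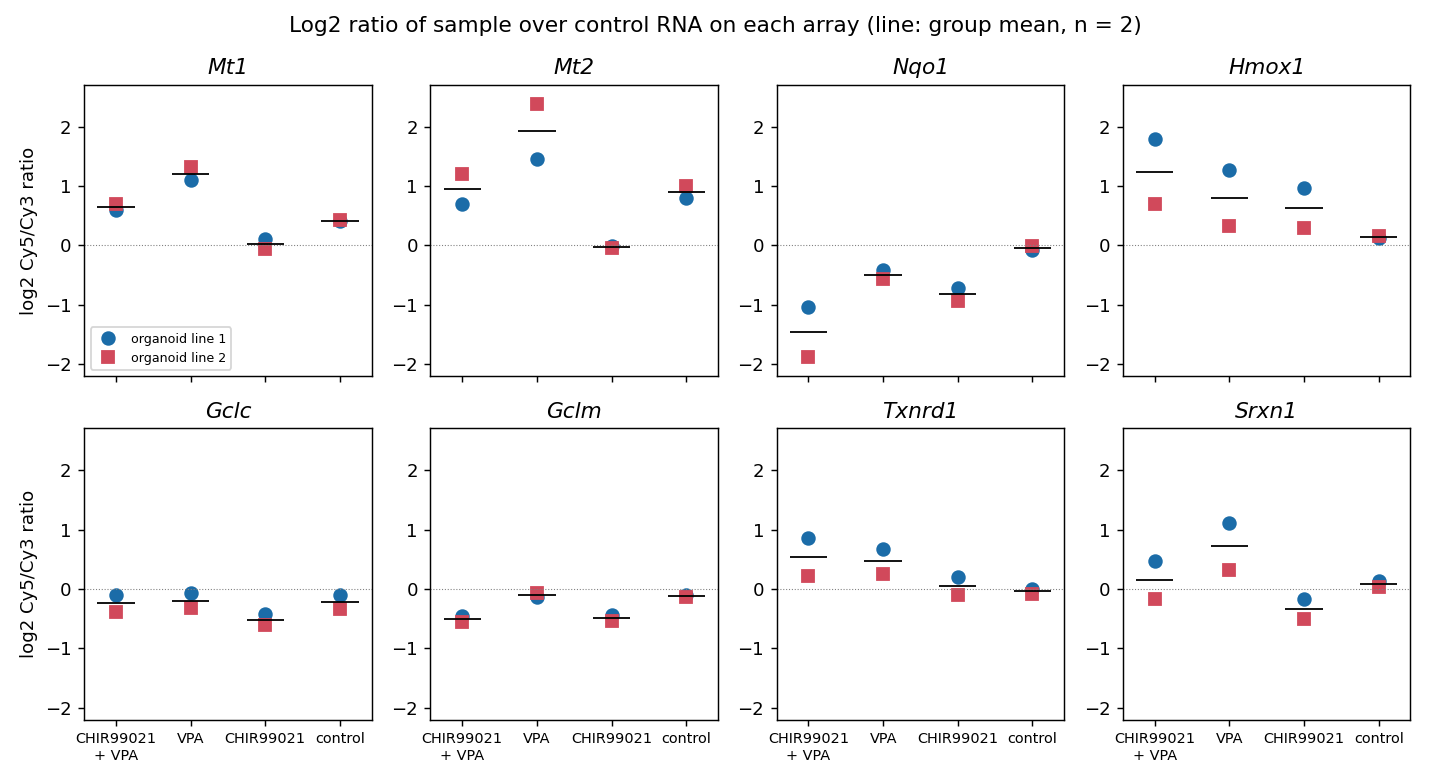
Log2 ratio of Cy5 (sample) over Cy3 (control RNA of the same line) for each of the 8 genes on each of the 8 arrays, with organoid line 1 as circles, line 2 as squares and the group mean as a bar. Mt1 stands at 1.09 and 1.32 with VPA and at 0.40 and 0.43 in control, and Nqo1 at -1.04 and -1.87 with the combination and at -0.07 and 0.00 in control.

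Both metallothioneins were highest with VPA and lowest with CHIR99021, and Mt1 passed the test with VPA. Mt1 had log2 ratios of 0.60 and 0.69 with the combination, 1.09 and 1.32 with VPA, 0.11 and -0.05 with CHIR99021, and 0.40 and 0.43 in control (lines 1 and 2). Both VPA arrays were the highest, both combination arrays came next, the control arrays followed, and both CHIR99021 arrays were the lowest. For this and the genes that follow, how many of all genes separate their groups in such a way was not counted. Mt1 rose by 0.79 ± 0.11 with VPA (1.73-fold; adjusted p = 0.0105), with 0.69 in line 1 and 0.89 in line 2. With CHIR99021 it read -0.39 ± 0.11 (adjusted p = 0.215) and with the combination 0.22 ± 0.11 (adjusted p = 0.246). The combination stood 0.61 ± 0.11 above CHIR99021 alone (adjusted p = 0.0232), and -0.56 ± 0.11 relative to VPA alone (adjusted p = 0.0850). The Mt1 probe was printed in 10 spots per array, which were averaged; the other genes' probes had 1 spot.

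The VPA call of Mt1 was lost without the control array of line 1 (adjusted p = 0.110) or line 2 (0.0961), and narrowly with median centring in place of loess (0.0516) or the Cy5 channel alone (0.0553). The call of the combination against CHIR99021 ended in 9 of the 20 other settings, among them the fit of only those 2 groups (adjusted p = 0.0879) and each setting without a control, CHIR99021 or combination array (0.0620 to 0.144).

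Mt2 followed the same order in its group means, with a wider spread, but in line 1 the combination read below control. Its log2 ratios were 0.70 and 1.21 with the combination, 1.46 and 2.38 with VPA, 0.00 and -0.05 with CHIR99021, and 0.80 and 1.00 in control. The VPA arrays were the highest and the CHIR99021 arrays the lowest, while the combination and control arrays overlapped. The fold change was 1.01 ± 0.30 with VPA (adjusted p = 0.0852), -0.93 ± 0.30 with CHIR99021 (adjusted p = 0.264) and 0.05 ± 0.30 with the combination (adjusted p = 0.940), so none was called. With line as a replicate block, the VPA value passed (adjusted p = 0.0224), and so did the combination against CHIR99021 alone (0.98, adjusted p = 0.0268). Without the VPA array of line 1 the VPA value was 1.47 (adjusted p = 0.0246), and without that of line 2 it was 0.56 (adjusted p = 0.191). The CHIR99021 value passed where only those 2 groups were fitted (adjusted p = 0.00649). Over the 8 arrays, which share lines, slides and control RNA, the ratios of Mt1 and Mt2 correlated with r = 0.95, given as a description. The 2 genes are close copies, and whether their probes cross-hybridise was not tested.

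Part of the Mt2 ratio lay in the control dye. The Cy5 signal minus local background, before normalisation, was 152413 and 219135 with the combination, 210712 and 301963 with VPA, 95992 and 117095 with CHIR99021, and 167648 and 219634 in control. The Cy3 signal of Mt2, which is control RNA on every array, was 31579 and 26865 on the combination arrays, 25369 and 17489 on the VPA arrays, 38739 and 37981 on the CHIR99021 arrays, and 33951 and 29547 on the control arrays. In each line it was thus lowest beside the VPA sample and highest beside the CHIR99021 sample, opposite to Cy5. As a log2 difference from the control array of its line, Mt2's Cy3 read 0.05 and -0.09 on the combination arrays, -0.32 and -0.75 on the VPA arrays, and 0.24 and 0.30 on the CHIR99021 arrays, where the median absolute difference over all genes was 0.0687 to 0.104. For Mt1 the same differences were between -0.11 and 0.09. In the Cy5 channel alone, Mt2 read 0.54 with VPA (adjusted p = 0.149) and -0.69 with CHIR99021 (adjusted p = 0.347), and Mt1 read 0.76 and -0.27. The part of this Cy3 shift in the Mt2 ratio beyond these values was not tested.

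**Figure D2:**
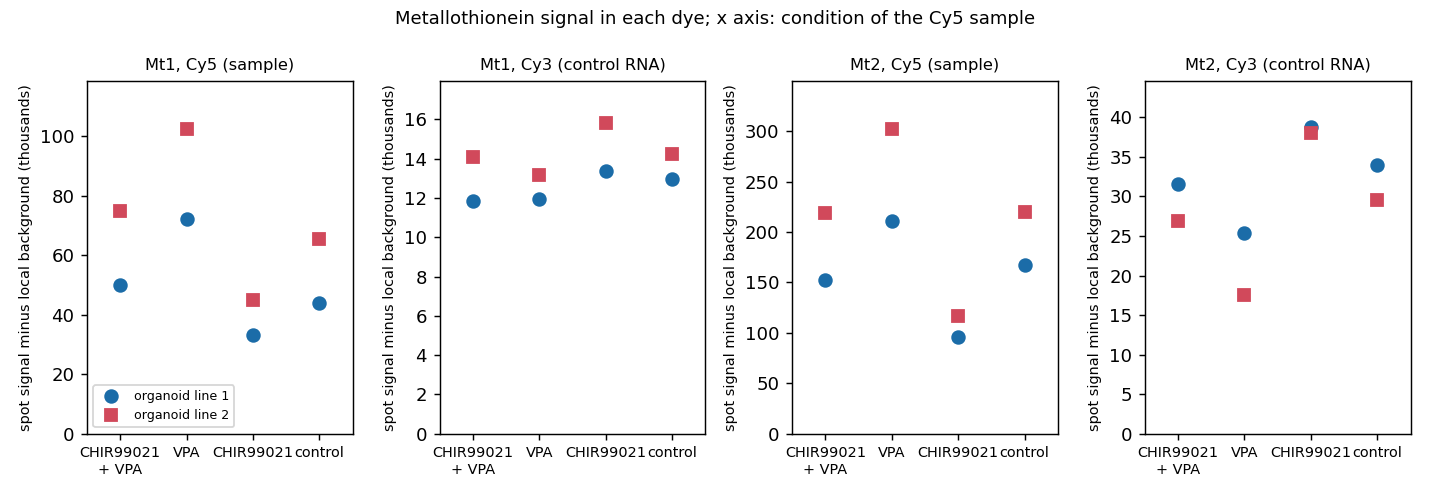
Spot signal minus local background, scaled as the axis states, for Mt1 and Mt2 in Cy5 (the sample) and in Cy3 (control RNA of the line), by the condition of the Cy5 sample, with line 1 as circles and line 2 as squares. Mt2 in Cy3 is lowest on the VPA arrays (25369 and 17489) and highest on the CHIR99021 arrays (38739 and 37981), although the same RNA was labelled on all arrays of a line.

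The sequences just upstream of the metallothioneins are shown because Mt1 was called with VPA. Forms of the metal response element matched in both, and the NRF2 motifs only upstream of Mt2. Mt2, the neighbour of Mt1, was also highest with VPA and lowest with CHIR99021, without a call. RefSeq windows of build GRCm38.p6, matched by symbol, were found for 6 of the 8 genes (not Hmox1 or Gclc), and the 250 bases before each start were searched on both strands for TGACNNNGC (a core of the antioxidant response element), TGANTCAGC (the NRF2 and small MAF motif), and TGCACNC and TGCGCNC (forms of the metal response element). Over 32851 windows of the same length, these occurred in 10.2%, 1.02%, 10.4% and 12.5%. The Mt1 window is chr8:94178839-94179088 and the Mt2 window chr8:94172368-94172617, both on the + strand, printed 5′ to 3′ with matches on either strand in capitals.
Mt1: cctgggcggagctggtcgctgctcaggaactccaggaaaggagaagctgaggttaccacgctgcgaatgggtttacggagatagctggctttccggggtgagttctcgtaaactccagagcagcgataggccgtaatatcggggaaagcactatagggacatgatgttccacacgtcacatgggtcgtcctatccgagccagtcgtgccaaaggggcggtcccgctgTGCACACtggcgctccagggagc
Mt2: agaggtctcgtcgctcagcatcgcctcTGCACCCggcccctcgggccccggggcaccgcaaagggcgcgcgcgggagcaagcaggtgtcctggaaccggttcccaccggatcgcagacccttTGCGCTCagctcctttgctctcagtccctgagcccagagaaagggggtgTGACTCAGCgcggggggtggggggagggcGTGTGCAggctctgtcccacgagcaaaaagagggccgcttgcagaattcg
In Mt1 the capitals mark 1 metal response element, TGCACAC, at bases -23 to -17 from the start. In Mt2 they mark 3 metal response elements, at -223 to -217, -128 to -122 and, on the opposite strand, -50 to -44, and 1 stretch at -79 to -71, TGACTCAGC, that fits both NRF2 motifs. A match is a description of these letters and not evidence of binding. Bases past the annotated start were not searched, so the windows of Mt1 and Mt2 do not compare their whole promoters.

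Nqo1, a quinone reductase that uses NADPH or NADH, read lower on every treated array than in control and passed the test with the combination. Its log2 ratios were -1.04 and -1.87 with the combination, -0.42 and -0.56 with VPA, -0.72 and -0.93 with CHIR99021, and -0.07 and 0.00 in control. The combination arrays were the lowest and the control arrays the highest, and no 2 groups overlapped, which was not counted over all genes. Nqo1 fell by 1.42 ± 0.25 with the combination (0.374 of control; adjusted p = 0.0127), with -0.97 in line 1 and -1.87 in line 2. With CHIR99021 alone it read -0.79 ± 0.25 (adjusted p = 0.251) and with VPA alone -0.45 ± 0.25 (adjusted p = 0.316). Against either single compound the combination read -0.63 ± 0.25 (CHIR99021; adjusted p = 0.174) and -0.97 ± 0.25 (VPA; adjusted p = 0.156), neither called.

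The combination call of Nqo1 was lost without the control array of line 1 (adjusted p = 0.0922) or line 2 (0.0986) and stood in the other 19 settings. Without the combination array of line 1, Nqo1 read -1.83 against control, -1.05 against CHIR99021 alone (adjusted p = 0.0199) and -1.38 against VPA alone (adjusted p = 0.0356), all then called. Without that of line 2 it read -1.01 against control (adjusted p = 0.0102), -0.22 against CHIR99021 alone (adjusted p = 0.355) and -0.55 against VPA alone (adjusted p = 0.190). The CHIR99021 value passed without either combination array (adjusted p = 0.0392 each) and where only those 2 groups were fitted (adjusted p = 0.0118). The Nqo1 RefSeq window held none of the 4 motifs, which says only that these letters are not in these 250 bases.

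Markers of absorptive enterocytes were read beside Nqo1. With VPA, 6 of the 12 markers had a positive and 6 a negative value. Their summed signal, given below, was above control in both lines and is weighted to the brightest markers. Of 12 enterocyte markers, all tested, 8 fell and 0 rose with the combination (median -1.77), 3 fell and 1 rose with VPA (median -0.17), and 5 fell and 0 rose with CHIR99021 (median -1.88). Beside this and the marker counts below, 7.11%, 4.19% and 0.956% of all genes fell in that order, and 8.43%, 6.55% and 0.109% rose. All 12 were well above background on 7 arrays and 11 on the combination array of line 1. Their summed normalised Cy5 signal was 61353 and 97879 with the combination, 391678 and 378225 with VPA, 108374 and 105377 with CHIR99021, and 271125 and 285847 in control. In RNA of whole organoids, fewer cells of a type and less RNA per cell cannot be told apart. Of 7 goblet cell markers tested, 7 fell with the combination, 6 with VPA and 0 with CHIR99021, and of 6 enteroendocrine markers, 3, 3 and 0 fell. Of 5 Paneth cell markers, 3 fell with the combination, 1 with VPA and 0 with CHIR99021, where 0 rose and their median was 0.66. Their summed normalised Cy5 signal was 74377 and 38460 with the combination, 168666 and 33186 with VPA, 258677 and 105225 with CHIR99021, and 222678 and 64808 in control. The part of any of these cells in the values of Nqo1, or of the genes that follow, was not tested.

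Hmox1, which breaks haem down to biliverdin, iron and carbon monoxide, was higher on all 6 treated arrays than in control but differed widely between the lines. Its log2 ratios were 1.79 and 0.70 with the combination, 1.27 and 0.33 with VPA, 0.96 and 0.29 with CHIR99021, and 0.13 and 0.16 in control. In both lines the order ran from the combination down through VPA and CHIR99021 to control, and the 3 treated groups overlapped each other. The fold change was 1.10 ± 0.44 with the combination (adjusted p = 0.153), 0.65 ± 0.44 with VPA (adjusted p = 0.416) and 0.48 ± 0.44 with CHIR99021 (adjusted p = 0.757), so none was called. With the line as a replicate block the combination passed (adjusted p = 0.0228), and 1.66 in line 1 stood against 0.53 in line 2.

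The 2 lines also started from different Hmox1 signals. Signal minus local background in Cy5 was 984 and 1674 with the combination, 768 and 1092.5 with VPA, 530 and 1160 with CHIR99021, and 305.5 and 1121 in control, for lines 1 and 2. The Cy3 signal of the control RNA was 100 to 141.5 on the arrays of line 1 and 384 to 398 on those of line 2. Its lowest value, 100, was on the combination array of line 1. After scaling of the arrays, this was a log2 difference of -0.35 from that line's control array. The median absolute difference over all genes on that array was 0.10, and the part of this shift in the Hmox1 ratio was not tested. The treated signals of the lines lay closer together than their control signals, and whether the starting level has a part in the fold change was not tested. Srxn1 and Txnrd1 showed the same order of the lines, with 5176.5 in line 1 and 11559.5 in line 2 for the Cy5 control signal of Srxn1, and 14854.5 and 32372.5 for that of Txnrd1.

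**Figure D3:**
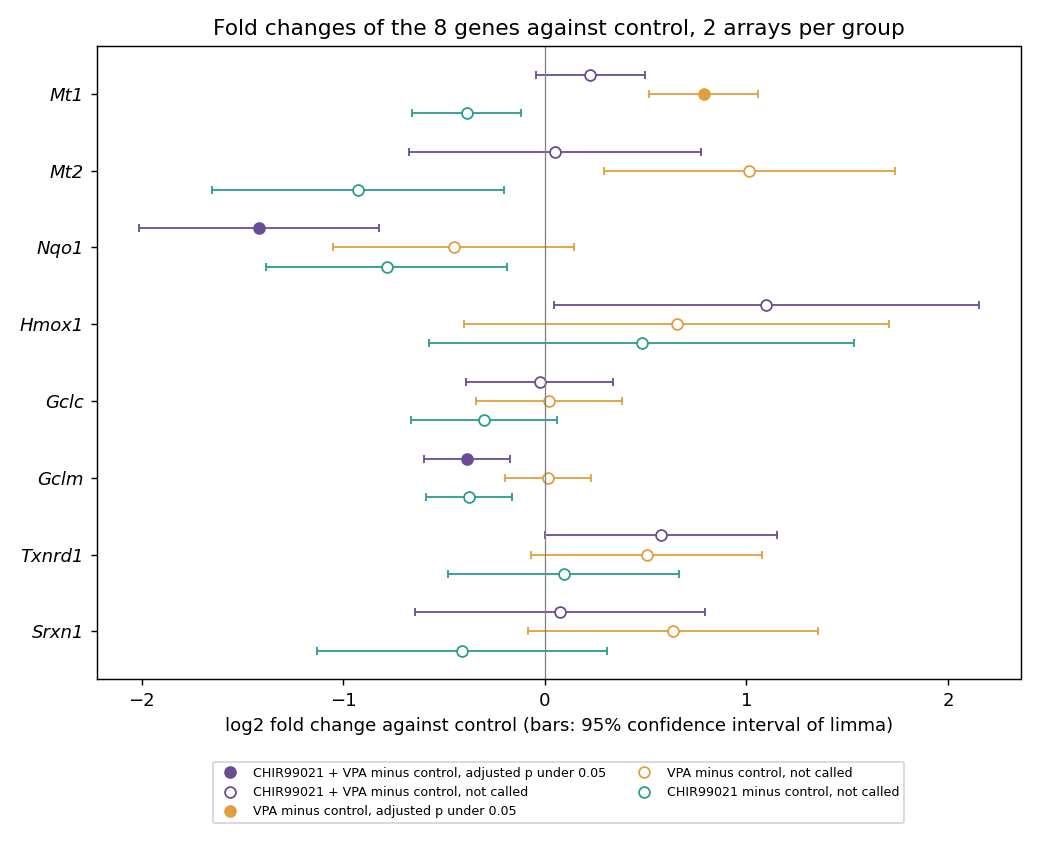
Log2 fold change against control of each of the 8 genes with the combination, VPA and CHIR99021, with limma's 95% confidence intervals from 2 arrays per group. Filled points were called (Nqo1 and Gclm with the combination, Mt1 with VPA), and open points were not.

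The 2 subunits of glutamate-cysteine ligase, which makes the rate-limiting step of glutathione synthesis, read lowest with CHIR99021 alone or, for Gclm, with the combination as well. Gclm, the modifier subunit, had log2 ratios of -0.46 and -0.55 with the combination, -0.14 and -0.07 with VPA, -0.44 and -0.54 with CHIR99021, and -0.10 and -0.13 in control. The 4 arrays with CHIR99021 were all below the 4 without it, and within each of these sets the groups overlapped. Gclm fell by 0.39 ± 0.09 with the combination (0.764 of control; adjusted p = 0.0319), while CHIR99021 alone gave nearly the same value without passing, -0.37 ± 0.09 (adjusted p = 0.140). With VPA it read 0.02 ± 0.09 (adjusted p = 0.938; 95% interval -0.20 to 0.23). The combination differed from CHIR99021 alone by -0.01 ± 0.09 (95% interval -0.23 to 0.20) and from VPA alone by -0.40 ± 0.09 (adjusted p = 0.109).

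The Gclm call ended in 10 of 21 other settings. On the combination array of line 1 its Cy5 signal minus background was 219 and its Cy3 signal 149, against 439 and 242 on the control array of that line, so both dyes were lower there. The call ended with all spots in the background model (adjusted p = 0.173), median centring (0.155), the Cy5 channel alone (-0.74, adjusted p = 0.0962) and the fit of only the 2 groups (0.0731), and without either array of control, CHIR99021 or the combination (0.0583 to 0.195).

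Gclc, the catalytic subunit, was called in no comparison, and in 1 alternative, CHIR99021 ratios against 0, it passed (adjusted p = 0.0179). Its log2 ratios were -0.10 and -0.38 with the combination, -0.08 and -0.32 with VPA, -0.43 and -0.61 with CHIR99021, and -0.10 and -0.33 in control. The CHIR99021 arrays were the lowest and did not overlap the other groups, which overlapped each other. The fold change was -0.03 ± 0.15 with the combination (adjusted p = 0.935; 95% interval -0.39 to 0.34), 0.02 ± 0.15 with VPA (adjusted p = 0.955; -0.34 to 0.38) and -0.30 ± 0.15 with CHIR99021 (adjusted p = 0.487).
The Gclm window, chr3:122245307-122245556 on the + strand of GRCm38.p6, is shown because Gclm is the called subunit. Its capitals mark 1 antioxidant response element core on the opposite strand at -134 to -126, overlapped by 1 of 2 metal response elements of the TGCGCNC form.
Gclm: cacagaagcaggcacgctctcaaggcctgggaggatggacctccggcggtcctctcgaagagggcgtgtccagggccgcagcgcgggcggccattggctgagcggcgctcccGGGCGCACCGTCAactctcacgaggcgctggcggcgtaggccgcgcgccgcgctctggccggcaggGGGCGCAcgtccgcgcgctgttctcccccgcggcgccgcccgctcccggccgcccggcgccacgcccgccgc

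The thioredoxin genes Txnrd1 and Srxn1 had positive values with VPA in both lines and none was called. Txnrd1, the cytosolic reductase that recharges thioredoxin with NADPH, had log2 ratios of 0.86 and 0.22 with the combination, 0.67 and 0.25 with VPA, 0.21 and -0.10 with CHIR99021, and 0.00 and -0.08 in control. The combination and VPA arrays overlapped each other and lay above control, while the CHIR99021 arrays overlapped control. Its fold change was 0.58 ± 0.24 with the combination (adjusted p = 0.167), 0.50 ± 0.24 with VPA (adjusted p = 0.245) and 0.09 ± 0.24 with CHIR99021 (adjusted p = 0.933). With the replicate block the combination (adjusted p = 0.0249) and VPA (adjusted p = 0.0464) passed. Without the combination array of line 2 the combination read 0.90 (adjusted p = 0.0418), and without that of line 1 it read 0.26 (adjusted p = 0.557).

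Srxn1, or sulfiredoxin, repairs peroxiredoxins that peroxide has over-oxidised. Its log2 ratios were 0.47 and -0.16 with the combination, 1.11 and 0.32 with VPA, -0.16 and -0.50 with CHIR99021, and 0.13 and 0.03 in control. The VPA arrays lay above and the CHIR99021 arrays below control in both lines, and the combination arrays spanned the control values. The fold change was 0.07 ± 0.30 with the combination (adjusted p = 0.907), 0.63 ± 0.30 with VPA (adjusted p = 0.244; 0.0437 with the replicate block, then called) and -0.41 ± 0.30 with CHIR99021 (adjusted p = 0.667). The other 2 probes of Srxn1 read 0.69 and 0.66 with VPA and -0.47 and -0.45 with CHIR99021, close to the brightest one, and -0.09 and -0.04 with the combination.
The Srxn1 window, chr2:152105274-152105523 on the + strand of GRCm38.p6, is shown because it holds the rarer NRF2 and small MAF motif near the start. The capitals mark TGAGTCAGC at -45 to -37 and, on the opposite strand, 1 metal response element at -19 to -13.
Srxn1: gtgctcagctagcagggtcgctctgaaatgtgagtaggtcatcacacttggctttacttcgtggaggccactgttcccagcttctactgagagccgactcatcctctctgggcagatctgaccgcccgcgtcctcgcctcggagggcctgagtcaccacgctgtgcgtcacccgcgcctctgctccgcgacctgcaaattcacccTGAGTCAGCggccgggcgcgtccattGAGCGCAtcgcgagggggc
Of the 3 Txnrd1 windows, 1 held an antioxidant response element core, GCTTTGTCA on the opposite strand, at -92 to -84.

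For none of the 8 genes did the combination depart from the sum of the single compounds by limma's test, within wide limits. The departure from additivity ran from -0.18 (Nqo1) to 0.25 (Gclc), with SEs from 0.13 to 0.62, and 0 of 8 and 0 of 19255 genes (0.0%) passed by limma, where 506 had an unadjusted p under 0.05. For Mt1 it was -0.18 ± 0.16 (95% interval -0.56 to 0.21) and for Hmox1 -0.04 ± 0.62 (-1.53 to 1.45), so sizeable departures in either direction cannot be told from these arrays. In Mt1, 0.79 with VPA and -0.39 with CHIR99021 stood beside 0.22 with both. In Nqo1, -0.45 and -0.79 stood beside -1.42.

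The regulators Nfe2l2, Keap1, Bach1 and Mtf1, and the zinc exporter gene Slc30a1, passed the test in none of the 3 comparisons with control. Nfe2l2, which encodes NRF2, read -0.26 ± 0.15 with the combination, -0.06 ± 0.15 with VPA and -0.42 ± 0.15 with CHIR99021 (adjusted p from 0.291 to 0.856). Keap1, its inhibitor, read -0.32 ± 0.26, -0.41 ± 0.26 and 0.12 ± 0.26, and Bach1, a repressor of Hmox1, read -0.12 ± 0.16, -0.34 ± 0.16 and 0.08 ± 0.16 in the same order. Mtf1, the activator of the metallothioneins, read -0.31 ± 0.14, 0.08 ± 0.14 and -0.41 ± 0.14. Of its other probes, 1 read 0.54, 0.50 and -0.08 and 1 read -0.17, -0.11 and -0.17 in that order. Slc30a1, the zinc exporter that MTF1 also controls, read -0.13 ± 0.12, 0.16 ± 0.12 and -0.28 ± 0.12, with another probe at -0.45, -0.19 and -0.36. Of 15 regulator genes, 1 rose and 1 fell with the combination: Park7, a redox-sensitive chaperone, at 0.38 ± 0.08, and Cul3, the scaffold of KEAP1's ubiquitin ligase, at -0.43 ± 0.10. With VPA 1 rose, Bach2, a relative of Bach1 (0.87 ± 0.19), and with CHIR99021 0 were called. The shares of all genes called were 15.5% with the combination, 10.7% with VPA and 1.06% with CHIR99021.

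Around the 8 genes, 170 further genes of redox, haem, metal and stress handling were listed and 155 were tested. With the combination 16 rose and 21 fell (23.9% called, against 15.5% of all genes), with VPA 21 rose and 9 fell (19.4%, against 10.7%), and with CHIR99021 0 rose and 4 fell (2.58%, against 1.06%). The medians were -0.03, 0.05 and -0.05. The lists were drawn up with earlier results of these data known, so their shares are descriptions.

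Genes of glutathione use moved both ways, while enterocyte markers fell with the combination and with CHIR99021 as given above. Of 26 tested, 1 rose and 8 fell with the combination, 4 rose and 2 fell with VPA, and 0 rose and 2 fell with CHIR99021. Calls over all genes stood at 15.5%, 10.7% and 1.06% in the same order. Ggct, which splits gamma-glutamyl peptides, rose by 1.78 ± 0.13 with the combination (adjusted p = 0.000865) and by 1.85 ± 0.13 with VPA (adjusted p = 0.00114), and read 0.19 ± 0.13 with CHIR99021. Mgst2, a membrane-bound glutathione transferase, fell in all 3 comparisons, at -2.44 ± 0.14 with the combination, -0.59 ± 0.14 with VPA and -0.97 ± 0.14 with CHIR99021. Ggt1, the brush border gamma-glutamyl transferase, fell with the combination (-2.30 ± 0.25) and with CHIR99021 (-1.66 ± 0.25). Among the soluble transferases, Gsta3 (-2.31 ± 0.22) and Gsto1 (-1.10 ± 0.11) fell with the combination. Gstm2 fell by 0.43 ± 0.11 with the combination and rose by 0.72 ± 0.11 with VPA, and Gstm4 rose by 1.21 ± 0.25 with VPA. These transferases belong to families of close copies whose probes may cross-hybridise.

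The thioredoxin, superoxide and NADPH lists are short, and their counts are descriptions. Of all genes, 15.5% were called with the combination, 10.7% with VPA and 1.06% with CHIR99021. Of 14 thioredoxin and peroxiredoxin genes, 2 rose and 1 fell with the combination, 1 rose and 2 fell with VPA, and 0 were called with CHIR99021. The methionine sulfoxide reductase Msra fell with the combination (-1.19 ± 0.17) and VPA (-0.99 ± 0.17), the peroxiredoxins Prdx4 and Prdx3 rose by 0.53 ± 0.13 and 0.34 ± 0.09 with the combination, and the mitochondrial reductase Txnrd2 fell by 0.74 ± 0.16 with VPA. Msrb1, another methionine sulfoxide reductase, rose by 0.46 ± 0.10 with VPA. Of 8 superoxide and peroxide genes, 1 rose with the combination, the NADPH oxidase subunit Cyba (0.45 ± 0.08), and 1 with VPA, the copper-zinc superoxide dismutase Sod1 (0.84 ± 0.09, adjusted p = 0.00492). Of 9 genes of NADPH supply, 1 rose and 1 fell with the combination, the isocitrate dehydrogenases Idh2 (0.75 ± 0.15) and Idh1 (-0.82 ± 0.19), and 1 rose with VPA, the malic enzyme Me1 (2.95 ± 0.33, adjusted p = 0.00473).

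**Figure D4:**
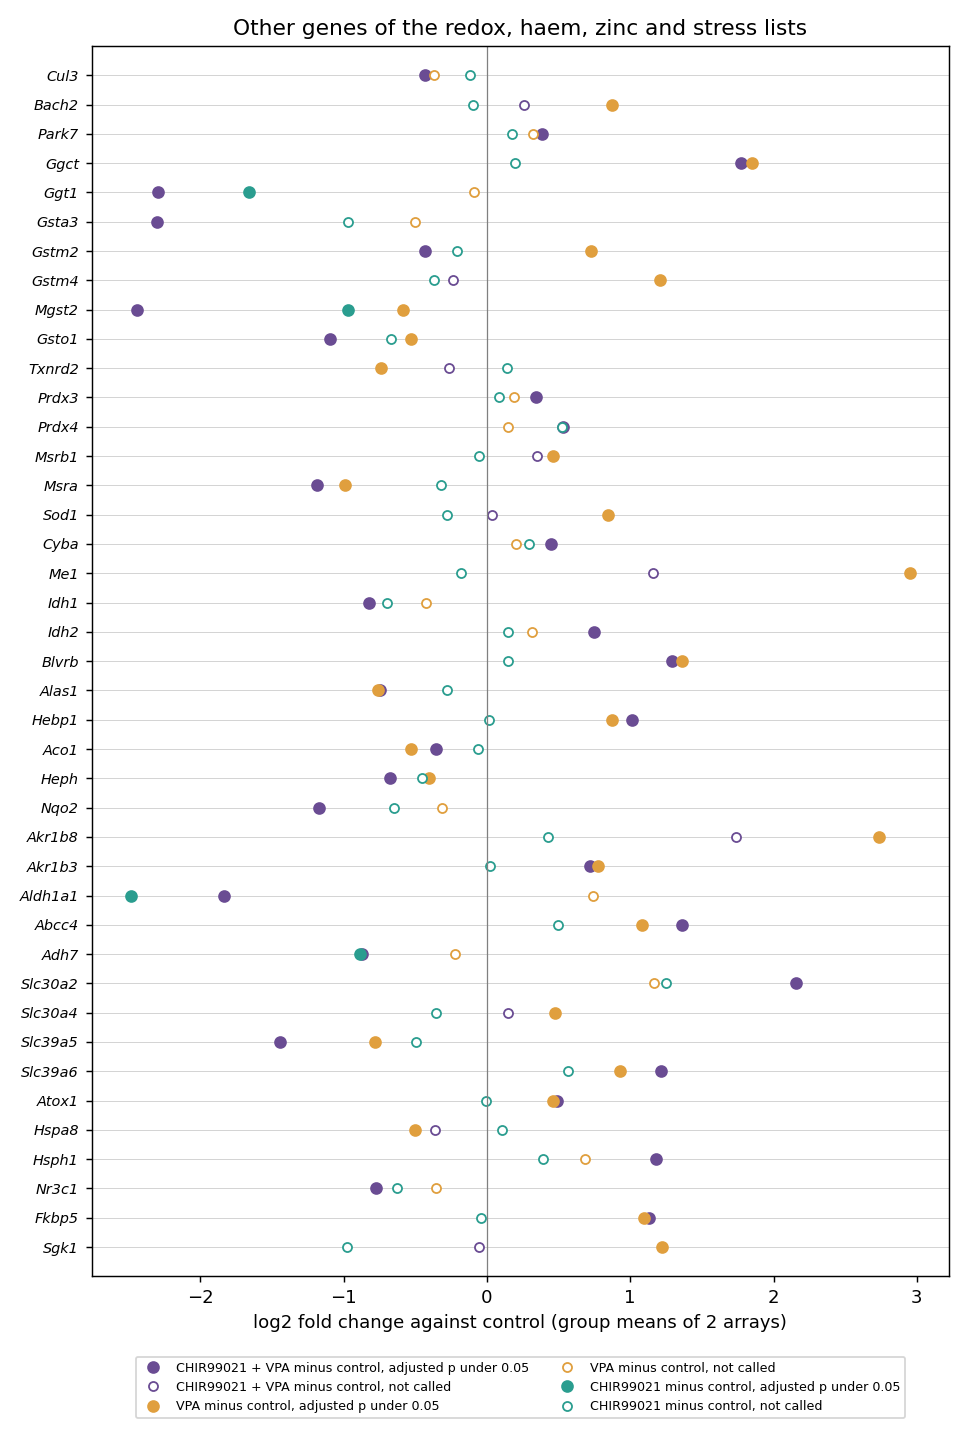
Log2 fold change against control (means of 2 arrays per group) of the further redox, haem, metal and stress genes named by rule, with the combination, VPA and CHIR99021. Filled points were called. Me1 (2.95) and Akr1b8 (2.74) lie farthest to the right with VPA, and Mgst2 (-2.44) and Aldh1a1 (-2.49) farthest to the left with the combination and with CHIR99021.

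Of 18 detoxification genes of the NRF2 programme tested, 2 rose and 4 fell with the combination, 3 rose and 0 fell with VPA, and 0 rose and 2 fell with CHIR99021. Among all genes, 15.5%, 10.7% and 1.06% were called in that order. The aldo-keto reductase Akr1b8 rose by 2.74 ± 0.63 with VPA (adjusted p = 0.0411) and read 1.74 ± 0.63 with the combination (adjusted p = 0.119), and its relative Akr1b3 rose by 0.72 ± 0.12 with the combination and 0.77 ± 0.12 with VPA. Nqo2, a quinone reductase related to Nqo1, fell by 1.17 ± 0.12 with the combination (another probe -0.52). The retinal dehydrogenase Aldh1a1 fell with the combination (-1.84 ± 0.32) and CHIR99021 (-2.49 ± 0.32), as did the alcohol dehydrogenase Adh7 (-0.87 ± 0.14 with the combination and -0.89 ± 0.14 with CHIR99021). The Adh7 values hung on the background handling, from -3.64 to -0.78 with the combination and from -3.68 to -0.46 with CHIR99021 over 20 other settings, of which 4 and 11 ended the call. The exporter Abcc4 rose by 1.36 ± 0.25 with the combination and 1.08 ± 0.25 with VPA, where another probe read 0.43 and 0.04.

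In haem and iron handling, the list nearest to Hmox1, 2 of 17 genes rose and 3 fell with the combination, 4 rose and 3 fell with VPA, and 0 were called with CHIR99021. For all genes the called shares were 15.5%, 10.7% and 1.06% in the same order. Blvrb, a biliverdin reductase, rose by 1.29 ± 0.21 with the combination and 1.36 ± 0.21 with VPA, and the haem-binding protein Hebp1 rose by 1.02 ± 0.13 and 0.87 ± 0.13. Alas1, the first enzyme of haem synthesis, fell with the combination (-0.75 ± 0.09) and VPA (-0.76 ± 0.09). Heph, the ferroxidase of iron export, fell with the combination (-0.67 ± 0.10) and VPA (-0.40 ± 0.10), while its other probe read 0.07 and 0.12. The iron-regulatory protein Aco1 fell with the combination (-0.36 ± 0.09) and VPA (-0.53 ± 0.09), while its other probe read -0.14 and -0.15.

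In metal handling, the list nearest to the metallothioneins, 4 of 24 genes rose and 2 fell with the combination, 4 rose and 1 fell with VPA, and 0 were called with CHIR99021. Here too 15.5%, 10.7% and 1.06% of all genes were called in that order. Slc39a6, a zinc importer, rose by 1.21 ± 0.11 with the combination and 0.93 ± 0.11 with VPA, whereas Slc39a5, a zinc transporter of the basolateral membrane, fell with the combination (-1.44 ± 0.11) and VPA (-0.78 ± 0.11). Slc30a2, which loads zinc into vesicles, rose by 2.15 ± 0.32 with the combination (1.71 and 2.60 in the lines). The copper chaperone Atox1 rose by 0.49 ± 0.08 with the combination and 0.46 ± 0.08 with VPA, and the zinc transporter Slc30a4 by 0.48 ± 0.10 with VPA.

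For comparison, 2 other stress programmes were read. Of 18 ATF4 and heat shock genes, 1 rose with the combination, the chaperone Hsph1 (1.18 ± 0.21), and 1 fell with VPA, Hspa8 (-0.50 ± 0.11). Beside this and the next list, 15.5% of all genes were called with the combination and 10.7% with VPA. Metallothioneins also answer glucocorticoids, and of 7 glucocorticoid-responsive genes, 1 rose and 1 fell with the combination and 2 rose with VPA. Fkbp5 rose by 1.13 ± 0.23 with the combination and 1.09 ± 0.23 with VPA (other VPA probes 0.47 and 0.76), Sgk1 rose by 1.22 ± 0.17 with VPA and read -0.98 ± 0.17 with CHIR99021 (adjusted p = 0.0635), and the receptor Nr3c1 fell by 0.78 ± 0.20 with the combination. These pathway calls leaned on the control arrays: without that of line 1 or line 2, 19 and 18 of the 27 named combination calls ended, 23 and 23 of the 24 VPA calls, and 4 and 4 of the 4 CHIR99021 calls. In the Cy5 channel alone 15 of the combination calls, 16 of the VPA calls and 4 of the CHIR99021 calls ended, and with all spots in the background model 5, 4 and 4.

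The named symbols whose log2 ratios ran closest to each of the 8 genes over the 8 arrays were picked by Pearson's r among 13972 genes with a symbol. They were Crot, Ero1b and Ccnyl1 for Mt1 (r = 0.997, 0.996 and 0.988) and Bbox1, Pold4 and Tmem181a for Mt2 (0.994, 0.991 and 0.987). For Nqo1 they were Ccdc71l, Krt19 and Olfr318 (0.994, 0.974 and 0.974), for Gclm Cln8, Cyp3a13 and Cyp4f13 (0.988, 0.985 and 0.984), and for Hmox1 Ropn1l, Exosc1 and Slc16a1 (0.997, 0.994 and 0.993). For Gclc they were Ndufa11, Themis3 and Snx13 (0.978, 0.975 and 0.970), for Txnrd1 Ddt, Rac3 and Dnaja3 (0.995, 0.994 and 0.994), and for Srxn1 Eif2b2, Tmem252 and Camk1g (0.990, 0.987 and 0.985). Within the 8 genes, Txnrd1 ran with Hmox1 (r = 0.93), Srxn1 with Gclc (0.84) and Nqo1 with Gclm (0.82), whereas Mt1 and Nqo1 had r = 0.03. The arrays share lines, slides and control RNA, and with 8 of them and many genes high values of r are easily found, so these are descriptions.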

How the data were processed

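The arrays carried Cy5 and Cy3 and, as the file headers record, were scanned into Feature Extraction 10.5.1.1 of Agilent. The deposited intensity values are median spot and local background brightness in Cy5 and Cy3, on a linear scale. The log10 ratio deposited per spot is the software's own Cy5 over Cy3, and the authors' series table holds its log2 (equal within 5e-10 on 19228 spots), so its direction and scale were settled. Flags are as deposited by the software.

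Background was corrected with limma 3.58.1 (R 4.3.3; normexp, offset 50), and ratios were normalised by loess within arrays, with control spots at weight 0. Spots with outlier flags were left out of the values and of the background model, whose fit on all spots was an alternative. The design named mean signals and the files hold medians, which were used. Probes were named through RefSeq accessions (27479 of 41174), spots of a probe were averaged, and the brightest probe stood for a gene. A gene was kept where, in some group, both arrays had it well above background in Cy5; 78 were dropped for an outlier spot. The file headers name build mm9, so gene coordinates are not printed; promoter windows are those of GRCm38.p6.

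The 4 groups were fitted together (lmFit and eBayes; 4 residual and 2.69 prior degrees of freedom), with Benjamini-Hochberg adjustment over 19255 genes. Same-numbered samples are the same organoid line, per the labels, and deviated together (r from 0.122 to 0.754 over the 6 pairs of groups), so a fit with a replicate block for line was also run. Other alternatives were another offset, Agilent's ratios, the authors' table, median centring, Cy5 alone, no filter, mean over probes, treated ratios against 0, only the compared groups, a variance trend with robust fitting, and each array left out. The fit was tested on simulated data with independent noise per array and no line effect. That test does not cover the shared deviations of a line. The 8 genes, the lists and the tests were chosen with earlier results of these data known. Named were the 8 genes, Nfe2l2, Keap1, Bach1, Mtf1 and Slc30a1, up to 4 called genes per list and comparison with control by smallest adjusted p, and the 3 symbols most correlated with each gene.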

Additional observations from a re-analysis of the deposited data

Results flagged for a closer look

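In 5 cases among the comparisons between groups, the values of the 2 organoid lines had opposite signs under the same contrast, each with 1 array per group and line, and the difference was not tested. Mt2 read -0.11 in line 1 and 0.20 in line 2 with the combination against control. Srxn1 read 0.34 and -0.20 in the same contrast. Gclm read -0.0335 and 0.0658 with VPA against control. Txnrd1 read 0.21 and -0.0191 with CHIR99021 against control, and 0.18 and -0.0386 with the combination against VPA. None of these values was called. For the departure from additivity, which is not among these cases, 3 of the 8 genes had the same sign in both lines.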

How the results depend on the processing

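Of the values of the 8 genes under other settings, 866 kept direction and side of the threshold, 33 passed it anew, 25 lost it and 52 turned sign; the cause was not tested. With the replicate block, 4 of the 8 were called with the combination, 4 with VPA and 2 for the combination against CHIR99021; it ended no call of the 8 genes, and the pairing added none with CHIR99021 or against VPA. Treated ratios against 0 gave 6 calls with the combination, 3 with VPA and 3 with CHIR99021. Median centring gave 1, 0 (VPA) and 0 (combination against CHIR99021), and Cy5 alone 1, 0 and 0. Fitting only the compared groups gave 1 with the combination, 2 with CHIR99021 and 0 for the combination against CHIR99021. All spots in the background model gave 1 with the combination, and with VPA 2 were called in the authors' table. Cy5 alone with the replicate block, chosen after seeing the data, gave 5, 2 and 1 against control (combination, VPA, CHIR99021), 2 against CHIR99021 and 1 against VPA. Leaving out each array in turn gave 0 to 2 with the combination, 0 to 2 with VPA, 0 to 1 with CHIR99021, 0 to 2 against CHIR99021 and 0 to 1 against VPA. Signs turned for Mt1 with CHIR99021 (0.031 against 0), Gclc with VPA (-0.025 with Agilent's ratios and the authors' table, -0.1958 against 0), Gclm with VPA (-0.1015 against 0), Gclc with the combination (0.0149, median centring), Srxn1 with the combination (-0.0183, mean over probes) and Gclm against CHIR99021 (0.0189, median centring). Departures from additivity turned for Mt2 (0.0753 with all spots, 0.0394 with median centring, 0.2714 with Cy5 alone, with or without block), Hmox1 (0.3184 with all spots, 0.0149 with Agilent's ratios and the authors' table, 0.0297 with median centring), Gclm (0.0115) and Txnrd1 (0.0188), both with median centring. Leaving out arrays, Mt2 ran over -0.2063 to 0.3042, Gclc -0.1686 to 0.1158 and Srxn1 -0.242 to 0.3893 with the combination; Gclc -0.1004 to 0.1411 and Gclm -0.0191 to 0.0513 with VPA; Txnrd1 -0.0614 to 0.2493 with CHIR99021; Gclm -0.0617 to 0.0358 against CHIR99021; Hmox1 -0.1041 to 0.9895, Gclc -0.1889 to 0.0955 and Txnrd1 -0.2484 to 0.3913 against VPA. The departures then ran over -0.4985 to 0.42 (Mt2), -0.5941 to 0.2322 (Nqo1), -0.5843 to 0.5093 (Hmox1), -0.0779 to 0.0197 (Gclm), -0.3424 to 0.2974 (Txnrd1) and -0.5412 to 0.2425 (Srxn1). Over all genes, calls with the combination numbered 2992, with 1907 by Cy5 alone, 4821 with the block and 539 to 3245 leaving out arrays. With VPA they numbered 2068, with 1109 by median centring, 832 by Cy5 alone, 3732 with the block and 120 to 2479 leaving out arrays. With CHIR99021 they numbered 205, with 0 with all spots or Cy5 alone, 36 with Agilent's ratios, 128 with offset 10, 85 with the variance trend, 1087 with only the compared groups, 552 with the block and 1 to 271 leaving out arrays. Against CHIR99021 alone they numbered 1927, with 1121 by median centring, 926 by Cy5 alone, 288 with only the compared groups, 3429 with the block and 289 to 2053 leaving out arrays, and against VPA alone 214, with 28 with all spots, 34 with Agilent's ratios, 6 by Cy5 alone, 0 with only the compared groups, 617 with the block and 7 to 171 leaving out arrays. Treated ratios against 0 gave 7802, 7021 and 4292 calls (combination, VPA, CHIR99021), and Cy5 alone with the block 5285, 3592 and 342, with 3940 against CHIR99021 and 583 against VPA. Rises made up 54.2% of combination calls and 61.0% of VPA calls, against 64.6% and 76.7% with median centring, and 61.9% against 78.4% for the combination relative to CHIR99021. With 2 arrays per group, the number of arrays limits the precision; the 8 genes were well above background throughout.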
